A study of Mus musculus with 33 samples.

Results

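The 10 genes described here mark the presomitic mesoderm or run its segmentation clock, and they were followed through RNA sequencing of mouse embryonic stem cells on a path through paraxial mesoderm. The genes were chosen by name (Tbx6, Msgn1, Mesp1, Mesp2, Hes7, Lfng, Dll1, Dll3, Ripply2 and Rspo3), and 9 of the 10 were among the 17120 genes of the count table. Ripply2, which encodes a repressor of Tbx6 at the forming somite boundary, was not among these 17120 genes, and its level was not analysed here. The weakest gene of the table reached 0.611 CPM (a count relative to the total of its library) in its third-highest library.

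The stem cells came from blastocysts of mice that carry the ScxGFP tendon reporter. They were first grown as embryoid bodies with the BMP inhibitor LDN-193189 and then with the Wnt agonist CHIR and LDN-193189, and the embryoid bodies collected at D0 form the paraxial mesoderm group (PM, 3 libraries). The methods also describe versions of this stage with AGN 193109 or all-trans retinoic acid added. In the paper, later ScxGFP induction increased with AGN 193109 and was almost lost with all-trans retinoic acid. The labels do not say whether the PM cultures of these libraries had received a retinoid ligand. A change of ligand between PM and the later groups therefore cannot be told apart from the other changes. The other cultures were plated as a monolayer with TGFβ1, the smoothened agonist SAG and FGF2, with one retinoid receptor ligand added. The ligand was either CD1530, which activates receptor gamma (RARγ), or AGN 193109 (AGN), which as an inverse agonist lowers the basal activity of these receptors. Both conditions were collected 5 times, first at D0.25 and D0.75 of induction, then at D1.5 and D2.5, and last at D4, with 3 libraries each, which gives 11 groups and 33 libraries. PM differs from every later group in culture format and in the added factors as well as in time, so these cannot be told apart in the first step. The methods describe the 3 libraries of a group as biological replicates, but the labels do not tie them to separate cultures, so the p-values measure the spread between these libraries.

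In the embryo, the presomitic mesoderm is the strip of paraxial mesoderm from which somites bud off one after another. Posterior cells hold Wnt and FGF activity and express Tbx6 and Msgn1. A clock made of Notch, Wnt and FGF feedback loops, with Hes7 and Lfng among its oscillating genes, runs in these cells until Mesp2 sets the next boundary in the anterior presomitic mesoderm. Each value here is a mean over the cells of a culture, so that fewer expressing cells and less RNA per cell cannot be told apart, and clock phases are averaged.

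Positions are those of the GRCm38 build in GENCODE M21. Tbx6 is at chr7:126781483-126785560 on the plus strand, and Msgn1 at chr12:11208360-11208972 on the minus strand. Mesp1 at chr7:79792241-79793788 and Mesp2 at chr7:79810727-79813439 are neighbours on opposite strands, 16938 bases apart. Only 12 of the 1245 stretches of 31 bases in Mesp1 transcripts also occur in another gene, which is Mesp2, so few reads could be split between the pair. Lfng is at chr5:140607320-140615545 on the plus strand, and Dll3 at chr7:28293553-28302238 on the minus strand. Hes7 (chr11:69120404-69124055, plus strand), Dll1 (chr17:15367354-15376872, minus strand) and Rspo3 (chr10:29452416-29535867, minus strand) each share exon sequence with a gene on the opposite strand, over 234, 867 and 404 bases. The strand setting of the counting is not given in the sources used here, so reads of these 3 genes and of their antisense partners cannot be told apart in the shared bases.

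The sequences before 4 of these genes are shown because Tbx6 and Msgn1 fell in the first step in both conditions, Mesp2 separated by condition from D1.5, and Lfng carries a Notch-type motif. They are the RefSeq sequences (GRCm38.p6) just upstream of the annotated gene, 5′ to 3′ on the strand of the gene, with motif matches in capitals. Msgn1, chr12:11208973-11209198, minus strand. Tbx6, chr7:126781233-126781482, plus strand. Mesp2, chr7:79810477-79810726, plus strand. Lfng, chr5:140607091-140607319, plus strand.
Msgn1: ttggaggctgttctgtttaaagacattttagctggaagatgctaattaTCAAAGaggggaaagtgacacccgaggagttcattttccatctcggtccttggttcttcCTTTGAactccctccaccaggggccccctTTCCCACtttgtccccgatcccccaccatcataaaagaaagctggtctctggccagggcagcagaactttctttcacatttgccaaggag
Tbx6: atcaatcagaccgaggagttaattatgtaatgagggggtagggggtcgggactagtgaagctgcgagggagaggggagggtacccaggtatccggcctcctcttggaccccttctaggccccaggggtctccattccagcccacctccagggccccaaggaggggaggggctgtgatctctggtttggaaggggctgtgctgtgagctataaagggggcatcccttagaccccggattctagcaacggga
Mesp2: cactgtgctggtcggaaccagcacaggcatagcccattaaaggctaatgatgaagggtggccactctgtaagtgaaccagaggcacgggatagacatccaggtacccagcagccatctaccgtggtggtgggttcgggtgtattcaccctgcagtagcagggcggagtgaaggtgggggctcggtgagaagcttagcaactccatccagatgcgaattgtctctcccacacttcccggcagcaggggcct
Lfng: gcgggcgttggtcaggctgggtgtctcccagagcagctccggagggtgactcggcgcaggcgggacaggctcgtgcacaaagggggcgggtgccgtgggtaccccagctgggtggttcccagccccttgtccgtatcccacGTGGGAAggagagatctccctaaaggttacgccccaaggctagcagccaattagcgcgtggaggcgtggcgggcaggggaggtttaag
The letters searched on both strands, in the 250 bases before each start, were GTGGGAA for RBPJ, the factor through which Notch acts, CTTTGA for the TCF/LEF factors of Wnt signalling, AGGTGT for T-box factors and AGGTCA for a half-site of retinoic acid receptors. Distances are counted from the RefSeq start, which for Msgn1 and Lfng lies inside the annotated gene, downstream of the end of the printed sequence. Msgn1 held 2 TCF/LEF matches, beginning 202 and 143 bases before that start, and an RBPJ match at 114 bases. Lfng held an RBPJ match at 109 bases and Hes7 one at 180 bases. Mesp1 held a T-box match at 233 bases and TCF/LEF matches at 72 and 31 bases. Tbx6, Mesp2, Dll3 and Ripply2 held no match, and an AGGTCA match lay at 109 bases in 1 of the 2 Dll1 windows. No match overlapped another. Of 32851 windows of the same length, 5.42% held the RBPJ letters, 13.8% the TCF/LEF letters, 11.8% the T-box letters and 14.0% the half-site. A match is a description of the letters and not a binding site.

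Total counts ran from 17116084 to 22775275 per library, except in 1 AGN library at D2.5 (replicate 1) with 38120841. The CD1530 library at D0.75 replicate 1 stood apart from its replicates, with a chi-square per gene of 20.3 and 21.5 against them, where no other pair of replicates in a group exceeded 4.76. The PM libraries held Tbx6 and Msgn1 and also high levels of pluripotency markers, with a summed level of Pou5f1, Nanog, Zfp42 and Esrrb of 1800 to 1830 CPM. In the following, levels are CPM scaled by TMM factors, given as mean ± SD (n = 3). Each log2 fold change has its SE after the ± sign and the adjusted p of edgeR's quasi-likelihood test over 17120 genes, and a gene is called at an adjusted p under 0.05.

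Between PM and D0.25, 7 of the 9 genes changed in each condition. Dll3, Lfng, Mesp1 and Rspo3 rose and Tbx6, Msgn1 and Dll1 fell, while 67.8% of all genes were called in CD1530 and 68.1% in AGN. From D0.25 to D0.75, 7 genes were called in CD1530 (45.9% of all genes) and 6 in AGN (43.7%), and every one of these was lower at D0.75. From D0.75 to D4, CD1530 had 3 calls, with Dll1 and Rspo3 higher and Mesp1 lower (71.4% of all genes), and AGN had 6, with Rspo3 higher and Dll1, Dll3, Lfng, Mesp1 and Msgn1 lower (67.9%). The count in CD1530 was 2 without replicate 1 of D0.75, the library that stands apart, or without any 1 replicate of D4, since the Mesp1 call was then lost (adjusted p from 0.0507 to 0.18). Over the whole course from PM to D4, 6 genes were called in CD1530 (83.2% of all genes) and 7 in AGN (82%), of which only Rspo3 was higher at D4.

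**Figure D1:**
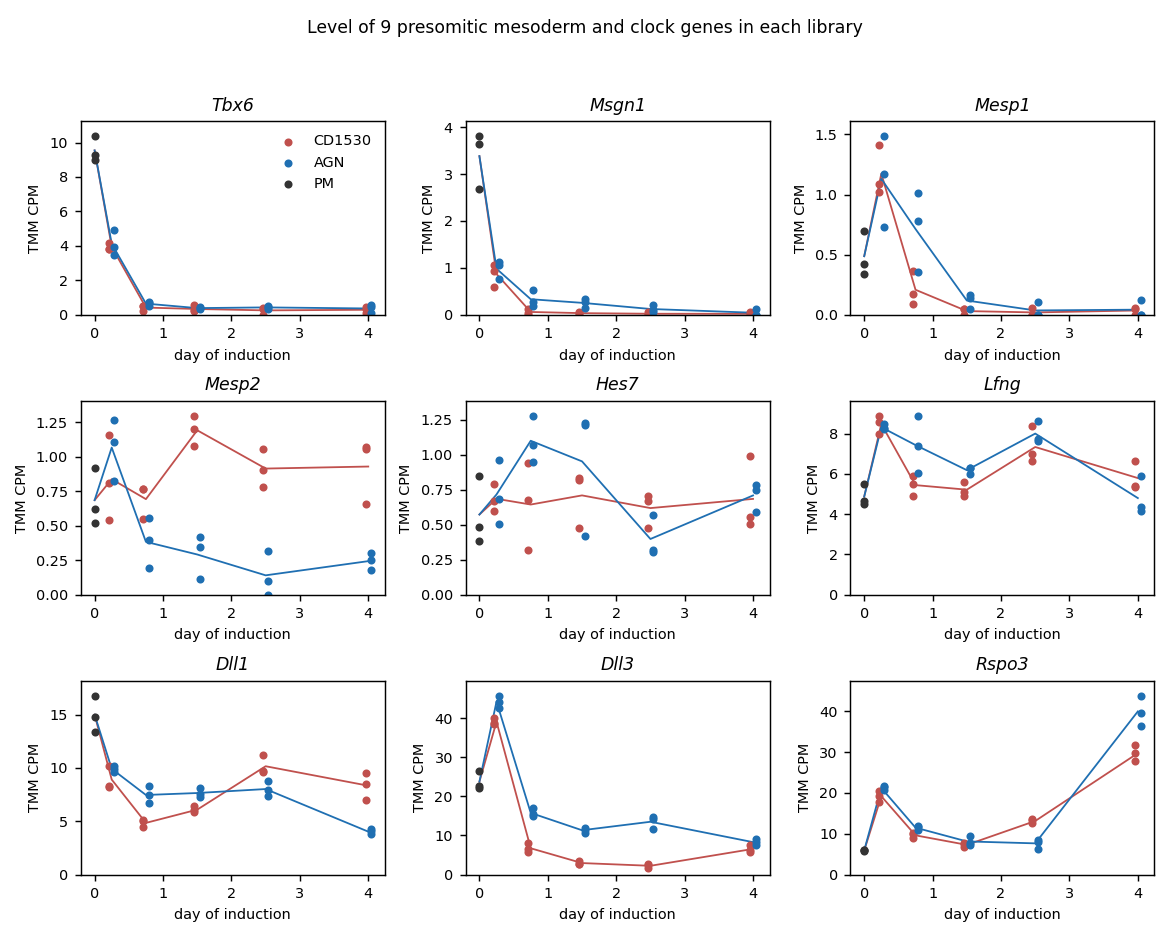
TMM CPM (y axis, linear from 0, a separate scale for each gene) against the day of induction (x axis) for the 9 genes. Points are single libraries, set slightly apart by condition, lines join group means, and PM is at day 0. Tbx6 goes from 9.56 CPM in PM to under 1 CPM at D0.75 in every library, Mesp2 separates by condition from D1.5, and Rspo3 has its highest values at D4.

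**Figure D2:**
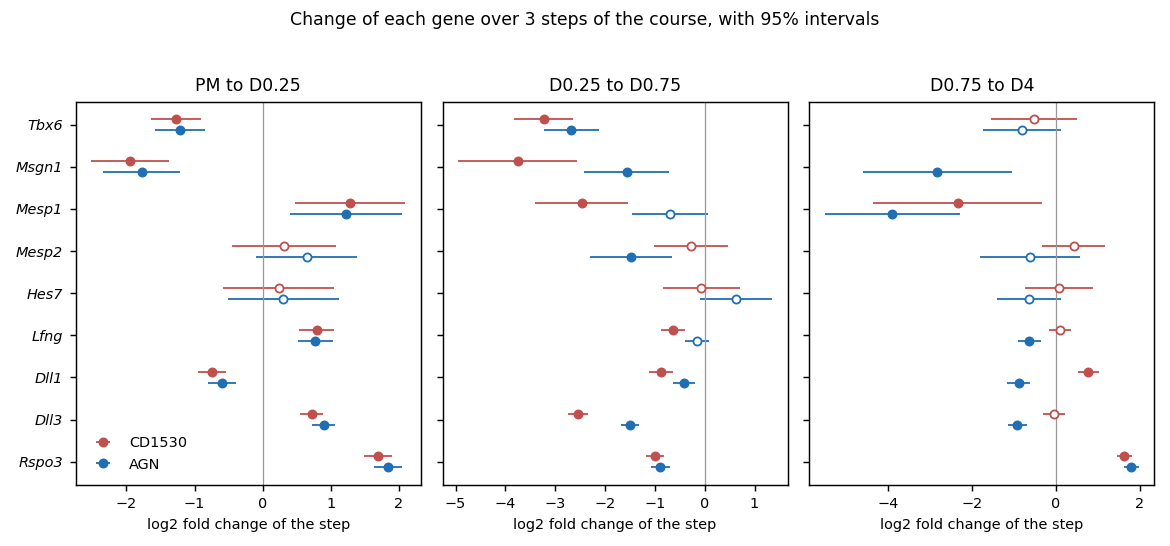
Log2 fold change (x axis) of each gene over 3 successive steps, with 95% intervals, in CD1530 and AGN. Filled points are called at an adjusted p under 0.05, open points are not, and no point is drawn where both groups had at most 3 counts in each library. Both conditions move the same genes in the first step, and Dll1 moves up in CD1530 and down in AGN in the last.

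The comparison of the conditions asks when the agonist and the inverse agonist cultures differed in these genes. At D0.25 none of the 9 genes was called by edgeR or by DESeq2 (1.92% of all genes), and 1, Dll3, had an unadjusted p under 0.05. At D0.75 there were 5 calls, all lower in CD1530 (18% of all genes), which became 2 without AGN replicate 2, 3 without CD1530 replicate 2 and 4 without CD1530 replicate 1, the library that stands apart. At D1.5 there were 4 calls (26.9%), or 2 when replicate 2 of CD1530, or replicate 1 or 2 of AGN, was left out. At D2.5 there were 4 calls (40%), of which Dll1 was lost in 2 of the 6 fits that left out a library. At D4 there were 4 (46.6%), of which Dll3 was lost in 4 of the 6 such fits. Mesp2 was higher in CD1530 at the last 3 times, and Dll3 was called lower in CD1530 at D0.75 and at every later time. At D4 the Dll3 libraries overlapped, and the call was also lost with scaling by library size only (edgeR adjusted p = 0.0548). The interaction of condition with time was called for 6 of the 9 genes, Dll1, Dll3, Lfng, Mesp2, Msgn1 and Rspo3 (48.8% of all genes).

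**Figure D3:**
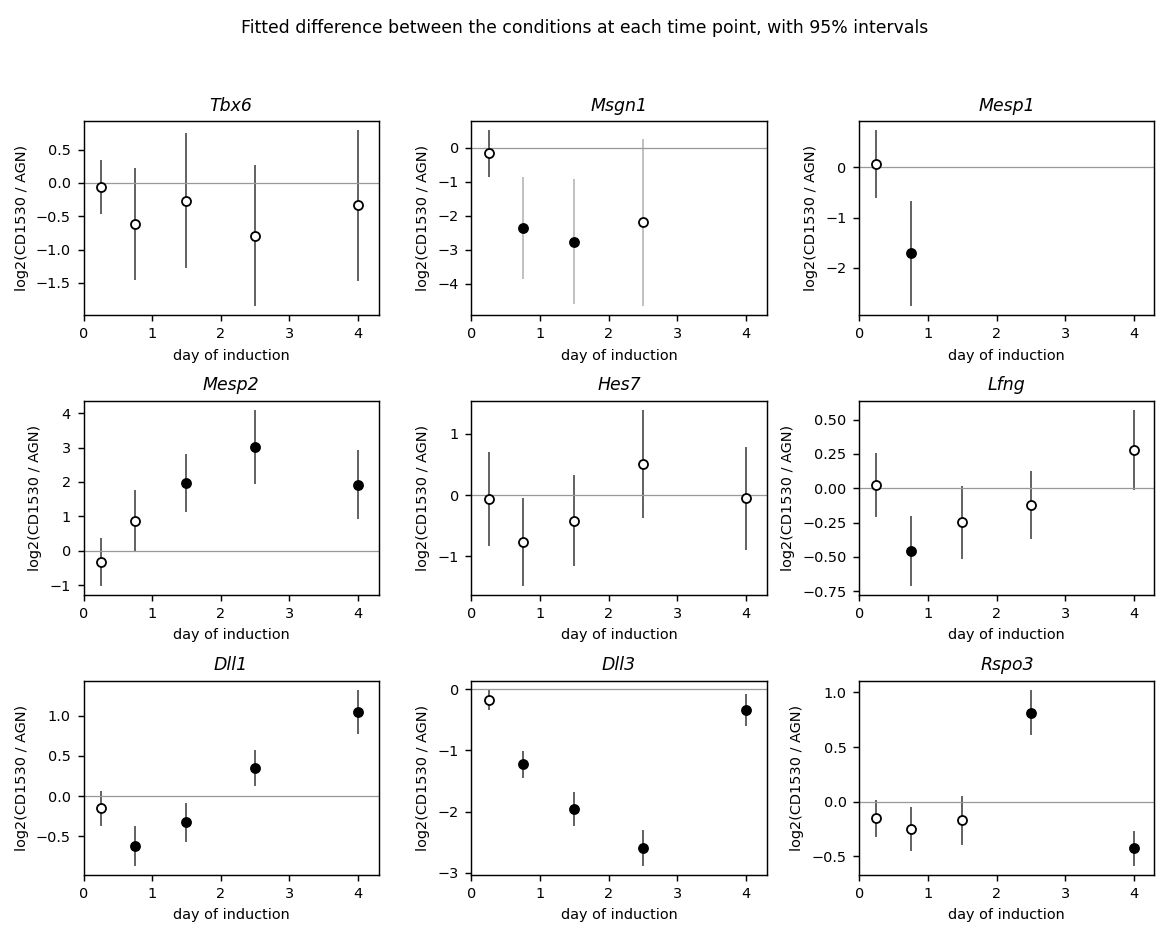
Fitted log2 ratio of CD1530 to AGN (y axis, a separate scale for each gene) at each day of induction (x axis), with 95% intervals. Filled points are called, open points are not, pale intervals mark a group with at most 3 counts in each library, and no point is drawn where both groups were so low. Dll3 lies at -2.59 and Mesp2 at 3.01 at D2.5 (2.103 to 4.467 with 1 library left out), and Dll1 runs from -0.61 at D0.75 to 1.04 at D4.

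Tbx6 encodes a T-box transcription factor that is needed for paraxial mesoderm identity. It was at 10.4, 8.97 and 9.26 CPM in the 3 PM libraries. At D0.25 it was at 3.81, 4.18 and 3.83 CPM in CD1530 and at 3.48, 3.95 and 4.91 CPM in AGN. The PM libraries lay above all D0.25 libraries, and the conditions overlapped. The change from PM was -1.28 ± 0.18 in CD1530 (adjusted p = 7.67e-08) and -1.22 ± 0.18 in AGN (adjusted p = 2.08e-07). By D0.75 the level was 0.412 ± 0.162 CPM in CD1530 and 0.643 ± 0.103 CPM in AGN, a further change of -3.23 ± 0.29 (adjusted p = 2.97e-12) and -2.68 ± 0.27 (adjusted p = 9.67e-11). From D0.75 on, each library held 16 counts of Tbx6 or fewer, and the step from D0.75 to D4 was not called in either condition. Against PM, D4 was 32.6-fold lower in CD1530 and 25.8-fold lower in AGN in the fit.

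No difference between the conditions was called for Tbx6 at any time, and its interaction had an adjusted p of 0.657. The 95% interval of the log2 ratio of CD1530 to AGN ran from -0.459 to 0.342 at D0.25. At D4 it ran from -1.465 to 0.792, so that a 2-fold lower level in CD1530 was not excluded at this depth.

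Msgn1, a basic helix-loop-helix factor of the posterior presomitic mesoderm, followed Tbx6 down. Its counts were 76, 57 and 71 in PM, which is 3.64, 2.69 and 3.82 CPM. At D0.25 it was at 0.866 ± 0.245 CPM in CD1530 and 0.982 ± 0.187 CPM in AGN, with changes of -1.94 ± 0.28 (adjusted p = 1.09e-07) and -1.78 ± 0.28 (adjusted p = 5.37e-07). At D0.75 the libraries of CD1530 held 1, 0 and 3 counts, and those of AGN 4, 11 and 5. The groups did not overlap, and the gene was called lower in CD1530 (adjusted p = 0.0204). The AGN level was 5.53-fold the CD1530 level, with a 95% counting interval of 1.85 to 22.2. The call was lost without AGN replicate 2 (adjusted p = 0.177), without CD1530 replicate 2 (0.0829) and without CD1530 replicate 1 (0.0523), the library that stands apart.

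At D1.5 the Msgn1 counts were 1, 0 and 1 in CD1530 and 6, 6 and 3 in AGN, a ratio of AGN to CD1530 of 7.89 (95% counting interval 1.83 to 71.1; edgeR adjusted p = 0.0193). That call was lost without replicate 2 of CD1530 (adjusted p = 0.0901) and without replicate 1 (0.0668) or 2 (0.0526) of AGN. At D2.5 the ratio was 5.69 with an interval of 0.763 to 253, and at D4 both conditions had at most 2 counts in each library. Against PM, the D4 level was 188-fold lower in CD1530 (95% counting interval 33.3 to 7440, 1 count in 3 libraries) and 83.2-fold lower in AGN (22.7 to 691, 2 counts). Intervals of this kind use the summed counts of the 3 libraries, so they cover counting error only and leave out the spread between libraries. Copies made by PCR are not independent molecules, which would make these intervals too narrow.

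Mesp1 and Mesp2 are related basic helix-loop-helix factors encoded side by side, and their courses separated. Mesp1, which marks nascent mesoderm and cardiac progenitors, had 7, 9 and 13 counts in PM. At D0.25 it had 22, 23 and 33 counts in CD1530 and 16, 24 and 31 in AGN, above every PM library. The rise was 1.28 ± 0.40 in CD1530 (adjusted p = 0.00445) and 1.22 ± 0.40 in AGN (adjusted p = 0.00746), and the latter was not called without AGN replicate 3 (adjusted p = 0.0599). At D0.75 Mesp1 was at 0.36, 0.0909 and 0.171 CPM in CD1530 and at 0.352, 0.777 and 1.01 CPM in AGN, which overlap in 1 library of each condition. The difference of -1.71 ± 0.52 was called (adjusted p = 0.0153), and it was -2.336 without CD1530 replicate 1. It was not called without replicate 2 of CD1530 (adjusted p = 0.0724) or without replicate 2 (0.0571) or 3 (0.106) of AGN. From D1.5 to D4 no library held more than 3 counts of Mesp1 in either condition. Against PM, the D4 level was 13.3-fold lower in CD1530 (95% counting interval 3.37 to 115) and 11.8-fold lower in AGN (2.99 to 102), with 2 counts in all at D4 in each. The interaction of condition with time was not called for Mesp1 (adjusted p = 0.119), but it was with the likelihood ratio test (0.0417) and without CD1530 replicate 1 of D0.75 (0.039) or AGN replicate 1 of D0.75 (0.046).

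Among the 7 measured markers of cardiac and lateral mesoderm, 5 were called between PM and D0.25 in CD1530 (67.8% of all genes), 4 of them higher, and 7 in AGN (68.1%), 6 of them higher. Gata4 rose by 3.64 ± 0.13 in CD1530 and 3.59 ± 0.13 in AGN. Myl7 was the gene called lower, with changes of -1.338 ± 0.221 in CD1530 and -1.034 ± 0.215 in AGN. The summed level of the 7 markers was 5.92 to 7.51 CPM in PM, 28.9 to 31.6 CPM in CD1530 and 29.0 to 30.1 CPM in AGN at D0.25. Most of the sum at D0.25 was Gata4, with means of 19.2 CPM in CD1530 and 18.6 CPM in AGN. The part of such cells in the Mesp1 values was not tested.

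Mesp2, which sets the segment boundary in the anterior presomitic mesoderm, was at 0.622, 0.52 and 0.916 CPM in PM and did not change by the test at D0.25 in either condition. In CD1530 the level then stayed between 0.546 and 1.3 CPM in every library from D0.75 to D4. In AGN it was at 0.397, 0.194 and 0.559 CPM at D0.75, a change from D0.25 of -1.48 ± 0.41 (adjusted p = 0.00292). At D1.5 CD1530 had 22, 28 and 25 counts and AGN 2, 9 and 7. At D2.5 the counts were 14, 17 and 18 against 0, 2 and 6, and at D4 21, 12 and 19 against 4, 5 and 3. All CD1530 libraries lay above all AGN libraries at these 3 times. The log2 ratio of CD1530 to AGN was 1.97 ± 0.42 at D1.5 (adjusted p = 3.26e-04), 3.01 ± 0.53 at D2.5 (adjusted p = 1.21e-05) and 1.91 ± 0.50 at D4 (adjusted p = 0.00144). Each of these calls was kept in every fit that left out a library, but the ratio at D2.5 was 2.103 without AGN replicate 1 and 4.467 without AGN replicate 3. Against PM, Mesp2 at D4 changed in AGN by -1.46 ± 0.52 (adjusted p = 0.0105), a call that was lost without PM replicate 3 (adjusted p = 0.0549). In CD1530 the same difference was 0.455 ± 0.381 with an interval of -0.315 to 1.226.

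Hes7, the transcriptional repressor at the core of the clock, was low throughout, with 6 to 29 counts per library. It was at 0.383, 0.85 and 0.485 CPM in PM, and its group means ran from 0.397 ± 0.148 CPM in AGN at D2.5 to 1.1 ± 0.166 CPM in AGN at D0.75. No comparison above called it, and its interaction had an adjusted p of 0.322. At D0.75 the libraries of CD1530 (0.675, 0.318 and 0.939 CPM) lay just below those of AGN (1.28, 1.07 and 0.95 CPM), with a log2 ratio of -0.765 ± 0.356 (adjusted p = 0.143). Without CD1530 replicate 3 this difference was called (adjusted p = 0.0458), and so was D4 against D0.75 in AGN with scaling by library size only (-0.821, adjusted p = 0.047). At this depth the intervals of the Hes7 ratio reached 1 log2 unit or more on at least 1 side at D0.75, D1.5 and D2.5. A difference of 2-fold on that side was therefore not excluded at those times. Of its stretches of 31 bases, 11.9% also occur in other genes, so reads there could be assigned elsewhere.

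Lfng encodes a glycosyltransferase that modifies Notch receptors and oscillates with the clock. It was at 4.5, 5.48 and 4.63 CPM in PM and rose at D0.25 to 8.86, 8.58 and 7.97 CPM in CD1530 and 8.46, 8.25 and 8.23 CPM in AGN. All D0.25 libraries lay above PM, with log2 changes of 0.79 ± 0.13 (adjusted p = 6.67e-07) and 0.77 ± 0.13 (adjusted p = 1.4e-06). At D0.75 Lfng fell by 0.64 on the log2 scale in CD1530 (adjusted p = 3.51e-05) to 5.44 ± 0.498 CPM, while AGN was at 7.43 ± 1.43 CPM and was not called lower than at D0.25 (adjusted p = 0.307). The conditions differed at that time by -0.456 ± 0.125 (adjusted p = 0.00742). This call was lost without AGN replicate 2 (adjusted p = 0.131) and when the 6 libraries compared were fitted alone (0.132).

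At D2.5 Lfng was at 7.33 ± 0.917 CPM in CD1530 and 8.0 ± 0.551 CPM in AGN, and at D4 it was at 5.78 ± 0.722 and 4.79 ± 0.945 CPM. The step from D2.5 to D4, added after the values had been seen, was -0.33 ± 0.13 in CD1530 (adjusted p = 0.0280) and -0.74 ± 0.13 in AGN (adjusted p = 7.14e-06). For this step 57.3% of all genes were called in CD1530 and 59.4% in AGN, and 4 of the 9 genes in each, or 2 in CD1530 without replicate 3 of D2.5. The Lfng call in CD1530 was lost without CD1530 replicate 3 of D2.5 (adjusted p = 0.181) and without replicate 2 (0.108) or 3 (0.0984) of D4. Against PM, the log2 change of Lfng at D4 had an interval of -0.028 to 0.528 in CD1530 and of -0.324 to 0.264 in AGN, and neither was called.

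Dll1 is the main Notch ligand of the presomitic mesoderm and is also made by neural progenitors. It was at 13.4, 16.8 and 14.8 CPM in PM and lower at D0.25, at 8.21, 8.32 and 10.2 CPM in CD1530 and 9.93, 9.62 and 10.2 CPM in AGN. The change was -0.74 ± 0.10 (adjusted p = 3.17e-08) and -0.59 ± 0.10 (adjusted p = 2.42e-06), and the conditions overlapped. At D0.75 CD1530 was at 4.46, 5.09 and 4.99 CPM, below all AGN libraries at 6.7, 7.43 and 8.27 CPM, a log2 ratio of -0.61 ± 0.12 (adjusted p = 2.22e-04). At D1.5 the difference was -0.32 ± 0.12 (adjusted p = 0.0404), and each of the 6 fits that left out a library lost this call.

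The order then turned. At D2.5 Dll1 was at 9.61, 9.68 and 11.2 CPM in CD1530 and at 7.37, 8.76 and 7.94 CPM in AGN, a log2 ratio of 0.35 ± 0.11 (adjusted p = 0.00903). This call was lost without CD1530 replicate 3 (adjusted p = 0.0741) or without AGN replicate 1 (0.0814), the library with the most counts. At D4 the levels were 6.97, 8.48 and 9.56 CPM in CD1530 and 4.25, 3.79 and 4.04 CPM in AGN, with no overlap. The log2 ratio was 1.043 ± 0.135 (adjusted p = 1.83e-08). From D0.75 to D4, Dll1 rose by 0.78 ± 0.12 in CD1530 (adjusted p = 5.05e-07) and changed by -0.88 ± 0.14 in AGN (adjusted p = 3.19e-07), and the interaction of condition with time had an adjusted p of 2.15e-09. From D2.5 to D4 Dll1 changed in CD1530 by -0.29 ± 0.11 (adjusted p = 0.0277) and in AGN by -0.98 ± 0.13 (adjusted p = 2.75e-08). The CD1530 call was lost with DESeq2 (adjusted p = 0.0614), without replicate 3 of D2.5 (0.15) and without replicate 1 of D4 (0.238).

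Dll3, a divergent member of the ligand family that lowers Notch activity in the cell that makes it, had the highest level per kb of exon of the 9 genes in PM, and its libraries were at 26.5, 22.6 and 22.2 CPM. It rose at D0.25 to 38.7, 40 and 38.6 CPM in CD1530 and to 45.8, 42.7 and 44.2 CPM in AGN, by 0.72 ± 0.09 (adjusted p = 1.13e-09) and 0.90 ± 0.09 (adjusted p = 3.25e-12). The libraries of AGN lay above those of CD1530 already at that time, but the difference of -0.18 ± 0.08 was not called (adjusted p = 0.360). It was called when the 6 libraries compared were fitted alone (adjusted p = 0.0269). From D0.25 to D0.75 Dll3 changed by -2.54 ± 0.10 in CD1530 (adjusted p = 1.53e-23) and by -1.49 ± 0.09 in AGN (adjusted p = 1.43e-17).

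Dll3 was then lower in CD1530 than in AGN until D2.5. At D0.75 it was at 8.02, 5.64 and 6.49 CPM against 15.4, 14.9 and 17.0 CPM, and at D1.5 at 3.38, 2.69 and 2.73 CPM against 10.7, 11.8 and 11.5 CPM. At D2.5 the libraries of CD1530 were at 2.46, 2.66 and 1.59 CPM and those of AGN at 14.6, 14.3 and 11.6 CPM. The log2 ratio was -1.23 ± 0.11, -1.96 ± 0.14 and -2.59 ± 0.14 at these times, with adjusted p-values of 1.2e-11, 4.14e-15 and 1.09e-18, and each call was kept in every fit that left out a library. The ratio at D2.5 corresponds to a 6.03-fold lower level in CD1530.

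By D4 the Dll3 levels had come together. CD1530 rose from 2.24 ± 0.567 to 6.56 ± 0.923 CPM between D2.5 and D4, by 1.53 ± 0.17 (adjusted p = 2.42e-10), while AGN changed by -0.72 ± 0.11 (adjusted p = 6.57e-07) to 8.29 ± 0.762 CPM. At D4 the libraries overlapped, at 5.81, 6.27 and 7.59 CPM in CD1530 and 9.0, 8.37 and 7.49 CPM in AGN. The remaining difference of -0.34 ± 0.13 (adjusted p = 0.0307) was lost without CD1530 replicate 1 (adjusted p = 0.159) or 2 (0.0863), without AGN replicate 1 (0.132) or 2 (0.0698), and with scaling by library size only (0.0548).

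Neural progenitors can also express Dll1 and Dll3, and their markers differed between the conditions at D4. At that time Dll1 was higher in CD1530, and Dll3 was called lower, with libraries that overlapped. All 10 measured neural and neurogenic markers were called higher in CD1530 than in AGN at D4 (46.6% of all genes called), with a median fitted log2 ratio of 4.05, against a median of -0.02 over all genes. Sox1, a factor of neural progenitors, was higher by 5.43 ± 0.24, and its mean in CD1530 was 29.5 CPM at D2.5 and 16.0 CPM at D4. The neurogenic factors Neurog1 and Neurog2 had at most 3 counts in every AGN library at D4, so their fitted ratios, which enter this median, are not bounds. The summed level of the list, most of which is Nes, was 735 to 745 CPM in CD1530 and 438 to 474 CPM in AGN. At D2.5, where Dll3 differed most, 6 of the 10 were called (40% of all genes), 5 of them higher in CD1530. The median log2 ratio of the list was then 0.99, against 0.001 over all genes. Sox1 was at a mean of 29.5 CPM in CD1530 and 0.753 CPM in AGN at D2.5. Nes, the 1 gene called lower, was at 531 and 611 CPM. The sums at D2.5, which are mostly Nes, overlapped, at 619 to 665 CPM in CD1530 and 632 to 691 CPM in AGN. The part of neural cells in the Dll1, Dll3 and Mesp2 values was not tested.

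**Figure D4:**
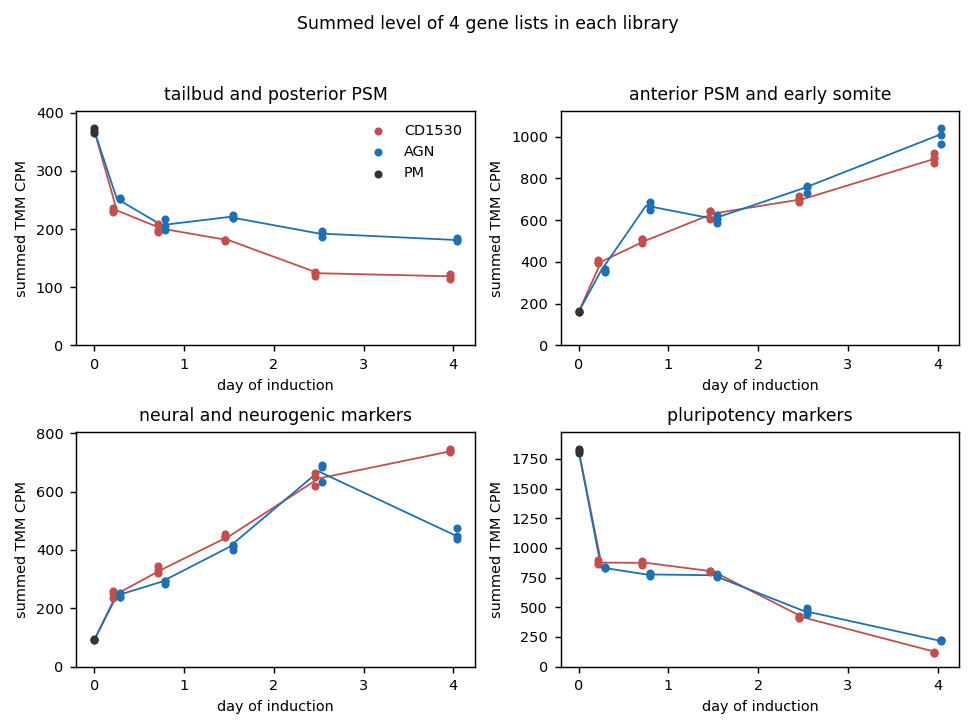
Summed TMM CPM (y axis, linear from 0) of 4 gene lists against the day of induction (x axis). Points are single libraries, set slightly apart by condition, and lines join group means. The neural sums, most of which are Nes, overlap at D2.5, where Sox1 of this list is at 29.5 CPM in CD1530 and 0.753 CPM in AGN. At D4 the neural sums are 735 to 745 CPM in CD1530 and 438 to 474 CPM in AGN. The pluripotency sums go from 1800 CPM or more in PM to 116 to 122 CPM in CD1530 and 217 to 227 CPM in AGN at D4. Of their 4 genes at D4, Pou5f1 is called lower in CD1530, and Nanog and Esrrb are called higher.

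Rspo3 encodes a secreted protein that strengthens Wnt signalling through Lgr receptors and the Znrf3 and Rnf43 ligases. It was at 5.93, 6.05 and 5.76 CPM in PM and rose at D0.25 to 20.5, 19.2 and 17.9 CPM in CD1530 and to 21.6, 20.7 and 21.4 CPM in AGN. The rise was 1.69 ± 0.10 (adjusted p = 2.69e-18) and 1.84 ± 0.10 (adjusted p = 1.41e-19). By D0.75 it had fallen in both conditions, with changes of -0.99 ± 0.09 (adjusted p = 5.61e-12) and -0.89 ± 0.09 (adjusted p = 7.2e-11). At D1.5 it was at 7.28 ± 0.562 CPM in CD1530 and 8.12 ± 1.09 CPM in AGN, where the conditions overlapped.

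The order of the conditions then changed with time. At D2.5 CD1530 was at 13.3, 13.5 and 12.6 CPM and AGN at 6.36, 8.0 and 8.58 CPM, a log2 ratio of 0.82 ± 0.10 (adjusted p = 1.27e-08) with no overlap. At D4 CD1530 was at 27.8, 31.8 and 29.7 CPM and AGN at 43.9, 39.6 and 36.5 CPM, and the ratio was -0.43 ± 0.08 (adjusted p = 1.49e-05). From D2.5 to D4 Rspo3 rose by 1.18 ± 0.09 in CD1530 (adjusted p = 6.24e-15) and by 2.42 ± 0.09 in AGN (adjusted p = 1e-24). The interaction of condition with time had an adjusted p of 2.92e-09. Against PM, D4 was 5.02-fold higher in CD1530 and 6.75-fold higher in AGN, and Rspo3 was the gene of the 9 with the highest level per kb of exon in both.

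Of the other genes of the R-spondin system, all 8 were measured. At D4, 6 were called (46.6% of all genes) and all 6 were lower in CD1530, with a median log2 ratio of -0.51 over the list. They include Rspo2 (-1.60 ± 0.32), Rspo1 (-1.12 ± 0.28) and the receptor Lgr5 (-0.83 ± 0.23). Lgr5 was also called higher in the first step, from 0.885 CPM in PM to 17.7 CPM in CD1530 and 21 CPM in AGN. At D2.5, where Rspo3 was higher in CD1530, 4 of the 8 were called (40% of all genes), with the receptor Lgr6 higher (1.748 ± 0.135) and the other 3 lower, Rspo1 (-1.16 ± 0.25) and Rspo4 (-0.95 ± 0.16) among them.

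The order of the genes by level was compared per kb of exon, since the genes differ in length. In PM it was Dll3 at 8.34 ± 0.825, Msgn1 at 5.52 ± 0.99, Tbx6 at 5.3 ± 0.428, Dll1 at 3.55 ± 0.413, Lfng at 1.94 ± 0.212 and Rspo3 at 1.91 ± 0.0459 CPM per kb. Mesp1, Mesp2 and Hes7 came last, at 0.382 ± 0.149, 0.353 ± 0.106 and 0.317 ± 0.136 CPM per kb. Msgn1 and Tbx6 did not differ beyond their SD, nor did Lfng and Rspo3, nor neighbours among the last 3. At D4 Rspo3 led, at 9.64 ± 0.635 CPM per kb in CD1530 and 13 ± 1.19 in AGN. In CD1530 Lfng (2.31 ± 0.288), Dll3 (2.3 ± 0.324) and Dll1 (1.98 ± 0.308 CPM per kb) followed, with neighbours within their SD of each other. In AGN Dll3 (2.91 ± 0.267), Lfng (1.91 ± 0.377) and Dll1 (0.955 ± 0.0543 CPM per kb) lay apart by more than their SD. Tbx6, Msgn1 and Mesp1 were at or under 0.2 CPM per kb in both conditions.

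**Figure D5:**
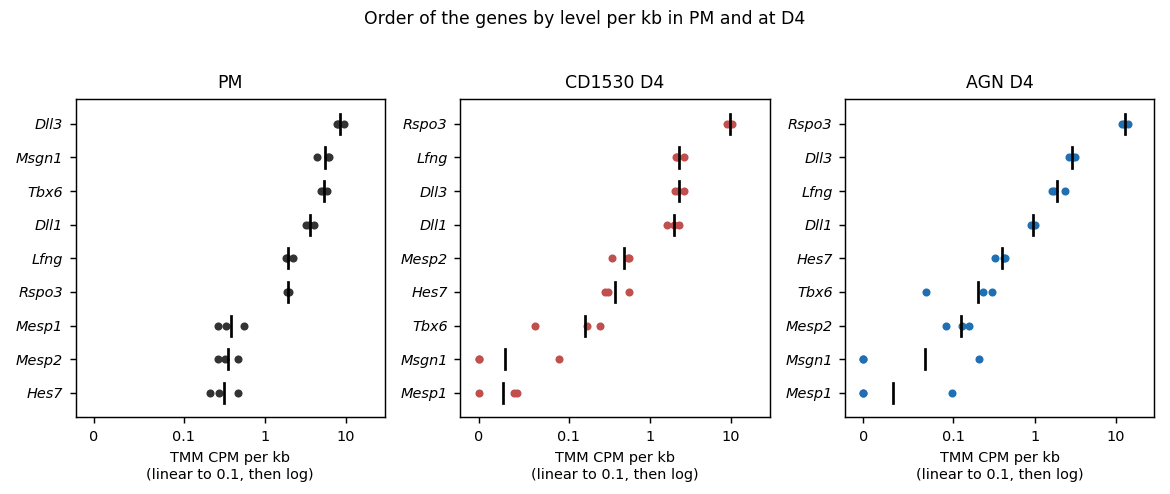
TMM CPM per kb of exon (x axis, linear to 0.1 and logarithmic above) for the 9 genes in PM, CD1530 at D4 and AGN at D4, in the order of their means. Points are single libraries and black bars are means. Dll3 leads in PM at 8.34 CPM per kb, and Rspo3 leads at D4 at 9.64 in CD1530 and 13 in AGN.

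Other genes of the tailbud and presomitic mesoderm were read as lists chosen with earlier results known. Of 13 tailbud and posterior genes, 12 changed between PM and D0.25 in each condition (67.8% of all genes in CD1530 and 68.1% in AGN), 9 of them lower, with a median log2 change of -0.97 in CD1530 and -0.58 in AGN against medians of 0 and 0.004 over all genes. Nkx1-2, a factor of the caudal progenitor zone, changed by -4.36 ± 0.14 in CD1530 and -3.95 ± 0.14 in AGN. Their summed level fell from 365 to 373 CPM in PM to 229 to 236 CPM in CD1530 and 251 to 254 CPM in AGN. At D4, 12 of the 13 differed between the conditions (46.6% of all genes), 5 higher and 7 lower in CD1530. Cdx1, a homeobox gene that retinoic acid receptors activate, was called higher, with at most 3 counts in every AGN library, while T (-5.74 ± 0.14) and Fgf8 (-4.31 ± 0.25) were lower. T, the Brachyury factor of the primitive streak and tailbud, was at 79.0 CPM in PM, and at D4 at 0.503 CPM in CD1530 and 27.1 CPM in AGN. Of the 4 pluripotency markers, 3 were called at D4 (46.6% of all genes), 1 lower and 2 higher in CD1530. Pou5f1 was lower, with mean levels of 26.6 CPM in CD1530 and 149 CPM in AGN. Nanog (0.39 ± 0.047) and Esrrb (0.342 ± 0.049) were higher. The sums, 116 to 122 CPM in CD1530 and 217 to 227 CPM in AGN, take their direction from Pou5f1. The part of pluripotency markers in the tailbud values was not tested. Tbx6 and Msgn1 were near the limit of detection in both conditions at that time.

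Of 14 genes of the anterior presomitic mesoderm and early somite, 10 changed in the first step in CD1530 (9 higher, 67.8% of all genes called) and 11 in AGN (9 higher, 68.1% called). Foxc2 and Foxc1, forkhead factors of somites, rose by 2.74 ± 0.08 and 2.51 ± 0.06 in CD1530 and by 2.7 ± 0.08 and 2.23 ± 0.07 in AGN. The summed level of the list went from 158 to 167 CPM in PM to 875 to 921 CPM in CD1530 and 966 to 1040 CPM in AGN at D4, and Foxc1 and Efnb2 make up most of it. At D4, 12 of the 14 differed between the conditions (46.6% of all genes), 5 higher and 7 lower in CD1530. Cer1 (-5.81 ± 0.24) and Meox2 (-1.86 ± 0.15) were lower and Pcdh8, a protocadherin of the anterior presomitic mesoderm, was higher (1.97 ± 0.28).

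Of 13 other genes reported to cycle with the clock, all 13 changed in the first step in each condition, 10 higher and 3 lower, where 67.8% of all genes were called in CD1530 and 68.1% in AGN. Dkk1, a secreted Wnt inhibitor, rose by 3.94 ± 0.11 in CD1530 and 4.16 ± 0.11 in AGN, and the Notch target Hey1 by 2.43 ± 0.07 and 2.40 ± 0.07. Sp5, a Wnt target, changed by -2.49 ± 0.06 and -2.52 ± 0.06. At D4, 10 differed between the conditions (46.6% of all genes), 5 in each direction, among them Dkk1 (-1.86 ± 0.17), Snai1 (-1.43 ± 0.06) and Hey1 (-1.39 ± 0.08). Of the 14 Notch receptors, further ligands and machinery genes, 14 changed between PM and D4 in each condition, where 83.2% of all genes were called in CD1530 and 82% in AGN, and 12 of them were higher, with Dll4 up by 3.66 ± 0.26 in both. At D4, 9 of the 14 differed between the conditions (46.6% of all genes), 8 of them higher in CD1530, Notch4 (1.418 ± 0.075) among them, and the median log2 ratio was 0.15. Endothelial cells also express Notch4 and Dll4. Of 5 endothelial markers 3 were called at D4 (46.6% of all genes), with Kdr higher in CD1530 (1.093 ± 0.091) and 2 lower. Their sums at D4 were 135 to 146 CPM in CD1530 and 129 to 136 CPM in AGN. At D0.75 all 5 were called higher in CD1530 (18% of all genes), with sums of 305 to 357 and 232 to 243 CPM. Notch4 was then at means of 105 CPM in CD1530 and 73.3 CPM in AGN. The part of endothelial cells in the Notch4 and Dll4 values was not tested. Of 2 measured myogenic markers, 1, Myog, was called higher in the first step in each condition (67.8% of all genes called in CD1530 and 68.1% in AGN). From D0.25 to D0.75 both were called higher in each condition (45.9% and 43.7% of all genes called). At D0.75 Myog had means of 5.11 CPM in CD1530 and 6.23 CPM in AGN. The sum of the 2 markers was at or under 0.653 CPM in every library at D4.

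For the 5 genes that reached a group mean of 5 CPM, the genes with the most similar course were sought over the 11 group means on the log2(CPM + 0.5) scale, as a description. Tbx6 was most like Dmgdh (r = 0.969), Khdc1c (0.967) and Dmrt2 (0.967). Dll3 was most like Cited1 (r = 0.923), Tns4 (0.867) and Mixl1 (0.866), and Rspo3 most like Arsi (0.909), Fgl2 (0.892) and Nxph4 (0.884). For Lfng the nearest were Vgf (0.781), Egr3 (0.745) and Gal (0.738), and for Dll1 M1ap (0.798), Nkx6-2 (0.785) and Nlrp4c (0.752). The 11 means share PM and the order in time, and 952 genes were compared. With a pseudocount of 2 in place of 0.5, none of the 3 names was kept for Tbx6, Lfng, Dll1 or Rspo3, and 1 was kept for Dll3.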

How the data were processed

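RNA of mouse cell cultures was sequenced with paired ends in 33 libraries, in 11 groups of 3. Per the labels and the study's methods, the authors aligned reads to GRCm38 with STAR, counted them per gene with featureCounts and deposited raw counts. Annotation release, strand setting and treatment of multiply mapped reads are not given in the sources used here. The 10 genes, the other gene lists and the rule for named genes (all 10, and at most 3 called genes a list with the largest change) were chosen with earlier results of these data known, and the steps from D2.5 to D4 were added after the values were seen. All 33 libraries were fitted with edgeR 4.0.16 (R 4.3.3, TMM, robust quasi-likelihood F test, one mean per group, filterByExpr, which removed 0 genes), with Benjamini-Hochberg adjustment over 17120 genes within a comparison. SE is the size of the log2 fold change over the square root of F. The fit was tested on simulated data. Totals of 17116084 to 38120841 counts per library limit genes of few counts, for which ratios have exact counting intervals. Alternatives were DESeq2 1.42.0, a likelihood ratio test, library-size scaling, filters, a replicate block, the compared groups alone and leaving out each library. Positions are from GENCODE M21 and promoters from RefSeq, which held entries for 9 of the 10 genes. Hes5, Tbx5, Myf5 and Pax7 were listed but were not among the genes of the table, and 1 further marker, which was measured and enters the list values, is not reported by name here.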

Additional observations from a re-analysis of the deposited data

Results flagged for a closer look

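For 6 of the 9 genes the difference between CD1530 and AGN changed with time, by the interaction of condition with time over the 5 time points in edgeR's quasi-likelihood test. The adjusted p was 7.639e-16 for Dll3, 2.145e-09 for Dll1, 2.919e-09 for Rspo3, 0.0001508 for Mesp2, 0.01335 for Lfng and 0.03835 for Msgn1. Over all genes the share called was 48.8%. The Msgn1 call was lost in 11 fits that left out 1 library, with adjusted p-values from 0.0518 to 0.0934.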

How the results depend on the processing

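With the compared groups fitted alone, the number of genes called between CD1530 and AGN was 1 at D0.25 and 2 at D0.75. The 2 at D0.75 were Dll1 and Dll3, and Lfng was not called (adjusted p = 0.132). Msgn1 and Mesp1 have no test result in that fit at D0.75, so the number says nothing about their calls. With 1 library left out at a time, it was 2 to 6 at D0.75, 2 to 3 at D1.5, and 2 to 4 for D4 against D2.5 in CD1530. With scaling by library size only, 3 uncalled changes in CD1530 turned sign, to -0.084 for Hes7 and -0.063 for Lfng (D4 against D0.75) and -0.064 for Mesp2 (D4 against D2.5). A fit with the replicate number as a block changed no count of genes called, with 5 at D0.75 and 4 at D4 between the conditions. In no comparison did all 3 same-numbered pairs of libraries correlate above 0.1. Of the 3 numbers, 0 to 2 matched best with their own. The labels give only the number, and a shared origin of same-numbered libraries was neither shown nor excluded by this check. Msgn1, Mesp1, Mesp2, Hes7 and late Tbx6, with few counts in a library, are limited by depth.

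Changes that were not called also turned sign when 1 library was left out, over the following ranges of log2 fold change. For CD1530 against AGN at D0.25 they were -0.168 to 0.087 for Tbx6, -0.338 to 0.028 for Msgn1, -0.178 to 0.312 for Mesp1, -0.272 to 0.203 for Hes7 and -0.007 to 0.068 for Lfng. At D1.5 the range was -0.761 to 0.013 for Tbx6, and at D2.5 -2.429 to 2.022 for Mesp1. At D4 they were -0.758 to 0.055 for Tbx6, -2.937 to 1.985 for Msgn1, -0.686 to 2.790 for Mesp1 and -0.409 to 0.112 for Hes7. In CD1530 they were -0.494 to 0.020 for Mesp2 and -0.448 to 0.248 for Hes7 (D0.75 against D0.25), -0.284 to 0.450 for Hes7, -0.019 to 0.154 for Lfng and -0.154 to 0.106 for Dll3 (D4 against D0.75), and -0.115 to 0.633 for Hes7 (D4 against PM). For D4 against D2.5 in CD1530 they were -0.372 to 0.788 for Tbx6, -2.024 to 1.984 for Msgn1, -0.083 to 0.219 for Mesp2 and -0.209 to 0.312 for Hes7. In AGN they were -0.200 to 0.063 for Lfng (D4 against PM), -0.609 to 0.172 for Tbx6 and -2.433 to 2.937 for Mesp1 (D4 against D2.5).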
